A study of Mus musculus with 39 samples.

Results

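The cytochrome P450 (Cyp), UDP-glucuronosyltransferase (Ugt), glutathione S-transferase (Gst) and sulfotransferase (Sult) genes were examined in 39 single cells from adult mouse liver. Members were all gene symbols that start with Cyp, Ugt or Sult and a digit, or with Gst, a class letter and a digit, with transcripts of a symbol summed. The rule found 72 members among 10061 symbols: 39 Cyp, 12 Ugt, 17 Gst and 4 Sult genes, carried by 79 of 13568 transcripts. The current RefSeq gene table holds 201 symbols that match the rule; those without a value are not analysed here.

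All 39 cells came from Krt19CreERT/Rosa26CAG-EGFP mice, in which an inducible Cre recombinase driven from the gene of the duct keratin Krt19 switches on a green reporter, so that a labelled cell is a Krt19-expressing cell or a descendant of one. Green cells were sorted from the liver of adult animals and picked one at a time for RNA sequencing. The labels put every cell in 1 group and name no animal, sex, exact age, inducer dose or day of sorting. The cells therefore count as 1 sample, no test between kinds of cells was possible, and every comparison below describes these cells with no replicate check.

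Cyp enzymes are haem proteins of the endoplasmic reticulum and mitochondria that insert oxygen into drugs, steroids, fatty acids and sterols, with electrons passed on by cytochrome P450 reductase and cytochrome b5. Ugt, Gst and Sult enzymes then join glucuronic acid, glutathione or sulfate to such products, which makes them easier to excrete in bile and urine. In liver this work is known mainly from hepatocytes, where many of these genes differ between cells near the portal vein and cells near the central vein.

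Levels are given in CPM, taken as scaled read counts and recovered from the deposited log2 values. A gene "listed at 0" sat at the lowest value of the table. Summed over all symbols, the values ran from 351255 to 3128330 CPM between cells. A given CPM is therefore not the same share of the total in each cell. A level of 100 CPM or more was counted as detected, which in the 37 cells whose depth could be recovered corresponded to between 367 and 4151 reads. Cells were grouped from marker genes of liver cell types, none of them a member. The 4 groups were 6 hepatocyte-like cells (cells 1, 2, 3, 4, 38 and 39), 22 cholangiocyte-like cells (bile duct), and 2 groups that are only numbered here. Group 3 held 7 cells led by Dcn, Col1a2, Slpi and Saa3, with fibroblast and mesothelial markers among its leading genes. Group 4 held 4 cells led by Elane, Mpo and Arhgdib, with granulocyte and other leukocyte markers among its leading genes. The cholangiocyte-like cells had 3 to 9 of 17 measured cholangiocyte markers and 0 to 13 of 30 hepatocyte markers at 100 CPM. Krt19 was listed at 0 in cells 15, 16, 17, 26, 30 and 31 of that group. The hepatocyte-like cells had 23 to 28 of 30 hepatocyte markers at 100 CPM, and Krt19 was listed at 0 in all 6. They also stood apart in values that are not cell type markers: ribosomal Rn45s took 0.383% to 1.22% of their summed CPM against 8.42% to 31.2% in the other 33 cells, Lars2 had a median of 0.982 CPM against 12407, and Rorb a median of 38444 CPM against 42.7. The part of these differences in the results on hepatocyte-like cells was not tested.

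Before the levels, the sequences that bear on them are shown. The genes of each family have near-identical relatives, so reads of one can be given to another. Of the 72 members, 38 shared no 50-base stretch with another member, 21 shared at least 10% of such stretches and 4 shared at least 50%: Ugt1a6a, Ugt1a6b, Gstp1 and Gstp2. The coding sequences of Gstp1 and Gstp2 (GENCODE annotation of GRCm38, both 630 bases) differed at 12 bases, an identity of 98.1%. Their bases 1 to 90, counted from the start codon, are shown because 6 of those differences, in capitals, fall there.
Gstp1: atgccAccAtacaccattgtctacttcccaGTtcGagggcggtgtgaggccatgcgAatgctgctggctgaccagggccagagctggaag
Gstp2: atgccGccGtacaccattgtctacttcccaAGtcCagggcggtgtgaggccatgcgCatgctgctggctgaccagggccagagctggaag
Cyp4a12a and Cyp4a12b, also 98.5% identical over 1524 coding bases, differed at 23 bases. Their bases 661 to 750 hold 7 of these, again in capitals.
Cyp4a12a: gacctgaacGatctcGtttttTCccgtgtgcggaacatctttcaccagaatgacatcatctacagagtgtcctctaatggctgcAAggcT
Cyp4a12b: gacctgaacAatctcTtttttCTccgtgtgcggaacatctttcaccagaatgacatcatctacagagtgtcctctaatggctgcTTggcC
Ugt1a6b and Ugt1a7c shared their last 737 coding bases, which encode the common end of the Ugt1a enzymes, and differed in the first part. The division of reads within these pairs was made by the authors' quantification, so the levels of the single members of a pair are less certain than their sum.

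Upstream sequence was searched in the 57 members with an entry in the RefSeq promoter table (GRCm38.p6), over the 250 bases before the start. The table covered 41 of the members that were higher in hepatocyte-like cells by the rule given below and 16 others. On either strand, a binding motif of HNF4 written CAAAGTCCA was found in 4 of the 41 (9.76%), in none of the 16, and in 0.381% of 27025 promoters. The 4 were Cyp3a11, Cyp2c67, Cyp2c68 and Cyp2c70. The letters TATAAA were found in 14 of the 41 (34.1%), in 1 of the 16 and in 13.0% of all promoters. The antioxidant response element TGACNNNGC stood before 1 of the 41, Gsta3, and before 1 of the 16, Gstm5, against 10.1% of all promoters; an HNF1 motif stood before Sult1d1 alone against 0.411%, and TTGCGCAA (CEBP) before none against 0.170%. Cyp genes of one subfamily are copies of each other and share upstream sequence, so these counts are not over independent promoters. Matched letters in capitals show the HNF4 and TATAAA letters together before Cyp3a11 (chr5:145879855-145880104 on the minus strand) and Cyp2c70 (chr19:40187287-40187536 on the minus strand), and TATAAA alone before Cyp2e1 (chr7:140763569-140763818 on the plus strand). In Cyp2c70 the capitals TTTATA are TATAAA read on the other strand. In Cyp3a11 TATAAA lies near the end of the stretch farthest from the start. Sult1c2 (chr17:53845959-53846208 on the minus strand), listed at 0 in all hepatocyte-like cells, is shown too, with none of the 5 motifs. Most of the 41 also lacked the HNF4 letters and most lacked TATAAA, so their absence does not set Sult1c2 apart.
Cyp3a11: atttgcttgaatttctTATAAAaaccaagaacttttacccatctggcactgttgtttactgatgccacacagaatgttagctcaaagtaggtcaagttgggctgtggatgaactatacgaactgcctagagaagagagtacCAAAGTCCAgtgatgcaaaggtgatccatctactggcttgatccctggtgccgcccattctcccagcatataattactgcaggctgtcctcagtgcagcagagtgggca
Cyp2c70: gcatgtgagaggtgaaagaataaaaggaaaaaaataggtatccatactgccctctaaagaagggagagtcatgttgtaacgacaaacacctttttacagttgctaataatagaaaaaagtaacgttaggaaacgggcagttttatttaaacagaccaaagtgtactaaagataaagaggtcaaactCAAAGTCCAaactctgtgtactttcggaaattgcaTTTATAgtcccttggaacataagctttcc
Cyp2e1: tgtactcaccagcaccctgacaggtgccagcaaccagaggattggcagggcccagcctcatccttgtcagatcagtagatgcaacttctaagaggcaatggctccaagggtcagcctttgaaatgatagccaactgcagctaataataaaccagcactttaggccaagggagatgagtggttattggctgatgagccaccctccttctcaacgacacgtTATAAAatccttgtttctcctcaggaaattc
Sult1c2: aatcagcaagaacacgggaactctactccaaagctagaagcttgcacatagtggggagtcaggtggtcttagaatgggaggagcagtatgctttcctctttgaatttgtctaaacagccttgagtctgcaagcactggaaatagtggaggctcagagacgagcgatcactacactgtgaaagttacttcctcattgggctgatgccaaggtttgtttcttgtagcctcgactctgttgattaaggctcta

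The hepatocyte-like cells carried the broadest set of these enzymes. They had 14 to 34 members at 100 CPM (median 25): 34 in cell 1, 20 in cell 2, 31 in cell 3, 22 in cell 4, 28 in cell 38 and 14 in cell 39. Cholangiocyte-like cells had 0 to 16 (median 2), group 3 had 1 to 5 (median 3) and group 4 had 0 to 3 (median 2). The ranges of the hepatocyte-like and cholangiocyte-like cells overlapped through 1 cell, cell 11 with 16 members. Summed over the 4 families, the level had a median of 16829 CPM in hepatocyte-like cells (7274 to 29062), 1798 in cholangiocyte-like cells (51.9 to 42291), 1167 in group 3 and 836 in group 4. As a share of all CPM in a cell this was a median of 2.41%, 0.181%, 0.127% and 0.0912%. Hepatocyte-like cells had fewer symbols of any kind at 100 CPM (median 766) than cholangiocyte-like cells (median 887) but more at 1 CPM (median 3024.5 against 2756). Within the group, cells 1 and 3, with the most members, had 1051 and 897 symbols at 100 CPM, and cell 39, with the fewest, had 598. The part of this in the count of members was not tested.

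**Figure D1:**
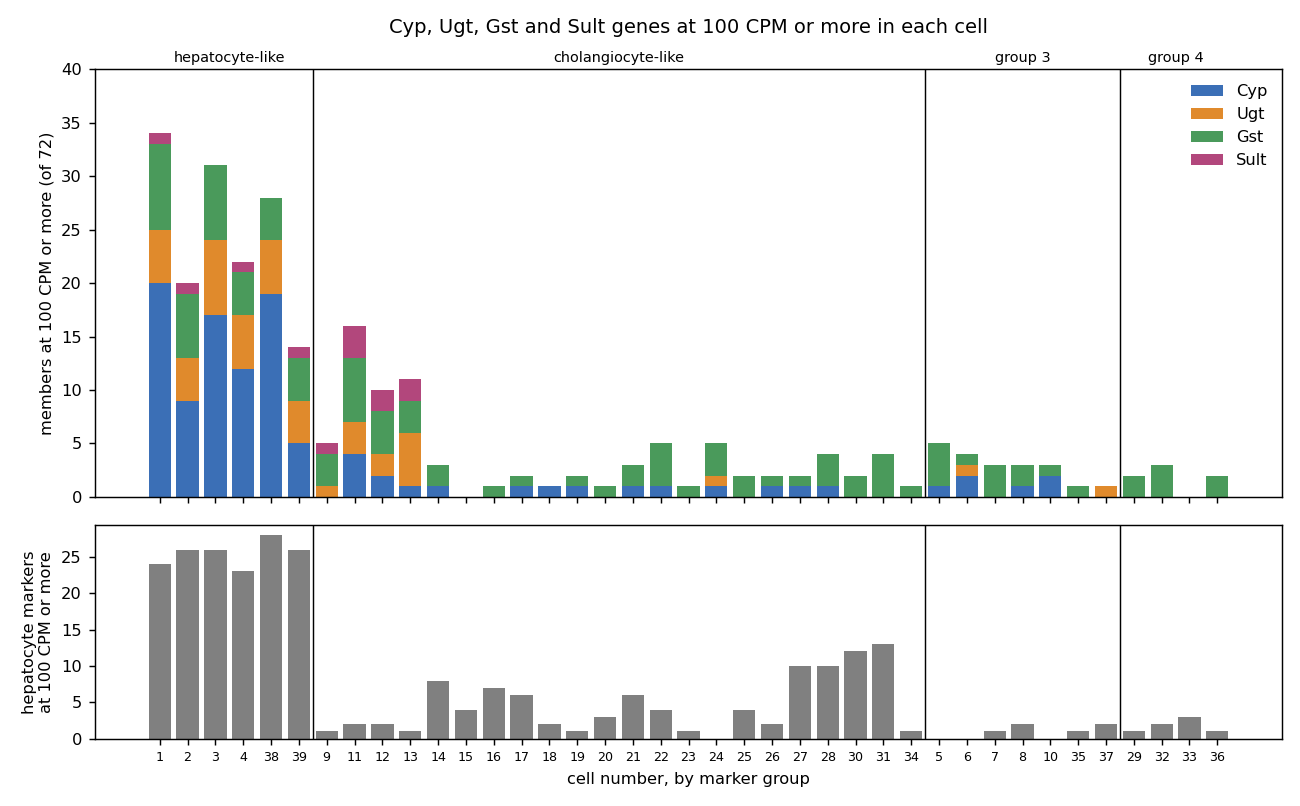
Number of the 72 members at 100 CPM or more in each cell (upper bars, stacked by family) and number of the 30 hepatocyte markers at that level in the same cell (lower bars), with cells ordered by marker group. The 6 hepatocyte-like cells reach 14 to 34 members, and cells 11, 12 and 13 reach 16, 10 and 11 with at most 2 hepatocyte markers.

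Groups were compared by the difference of their mean log2(CPM + 1) from that of all other cells, and a difference of 2 or more (4-fold on that scale) was counted. By that rule 51 of the 72 members (70.8%) were higher in hepatocyte-like cells, where 11.7% of all symbols were, and 0 were lower, where 7.54% were. The 51 were 28 of 39 Cyp, 9 of 12 Ugt, 12 of 17 Gst and 2 of 4 Sult genes. The median difference over the members was 3.38, against -0.37 over all symbols. With a pseudocount of 10 in place of 1, which weighs low levels less, 32 members were higher. The share of all symbols was not calculated with that pseudocount. In 17 members the lowest hepatocyte-like cell lay above the highest of the other 33 cells, which held for 1.76% of all symbols. At 100 CPM in 50% or more of the hepatocyte-like cells were 26 members, against 6.31% of all symbols.

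The families differed in how far they were limited to hepatocyte-like cells. At 100 CPM in hepatocyte-like cells and in no other cell were 27 members (3.56% of all symbols met this), 22 of them Cyp and 5 Ugt genes, with no Gst or Sult gene among them. At 100 CPM both in hepatocyte-like and in other cells were 23 members (18.4% of all symbols), of which 12 were Gst genes. The table holds only transcripts above 0.5 CPM in at least 2 cells, so a member silent elsewhere is in it through the cells where it is high, and these counts are descriptions.

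**Figure D2:**
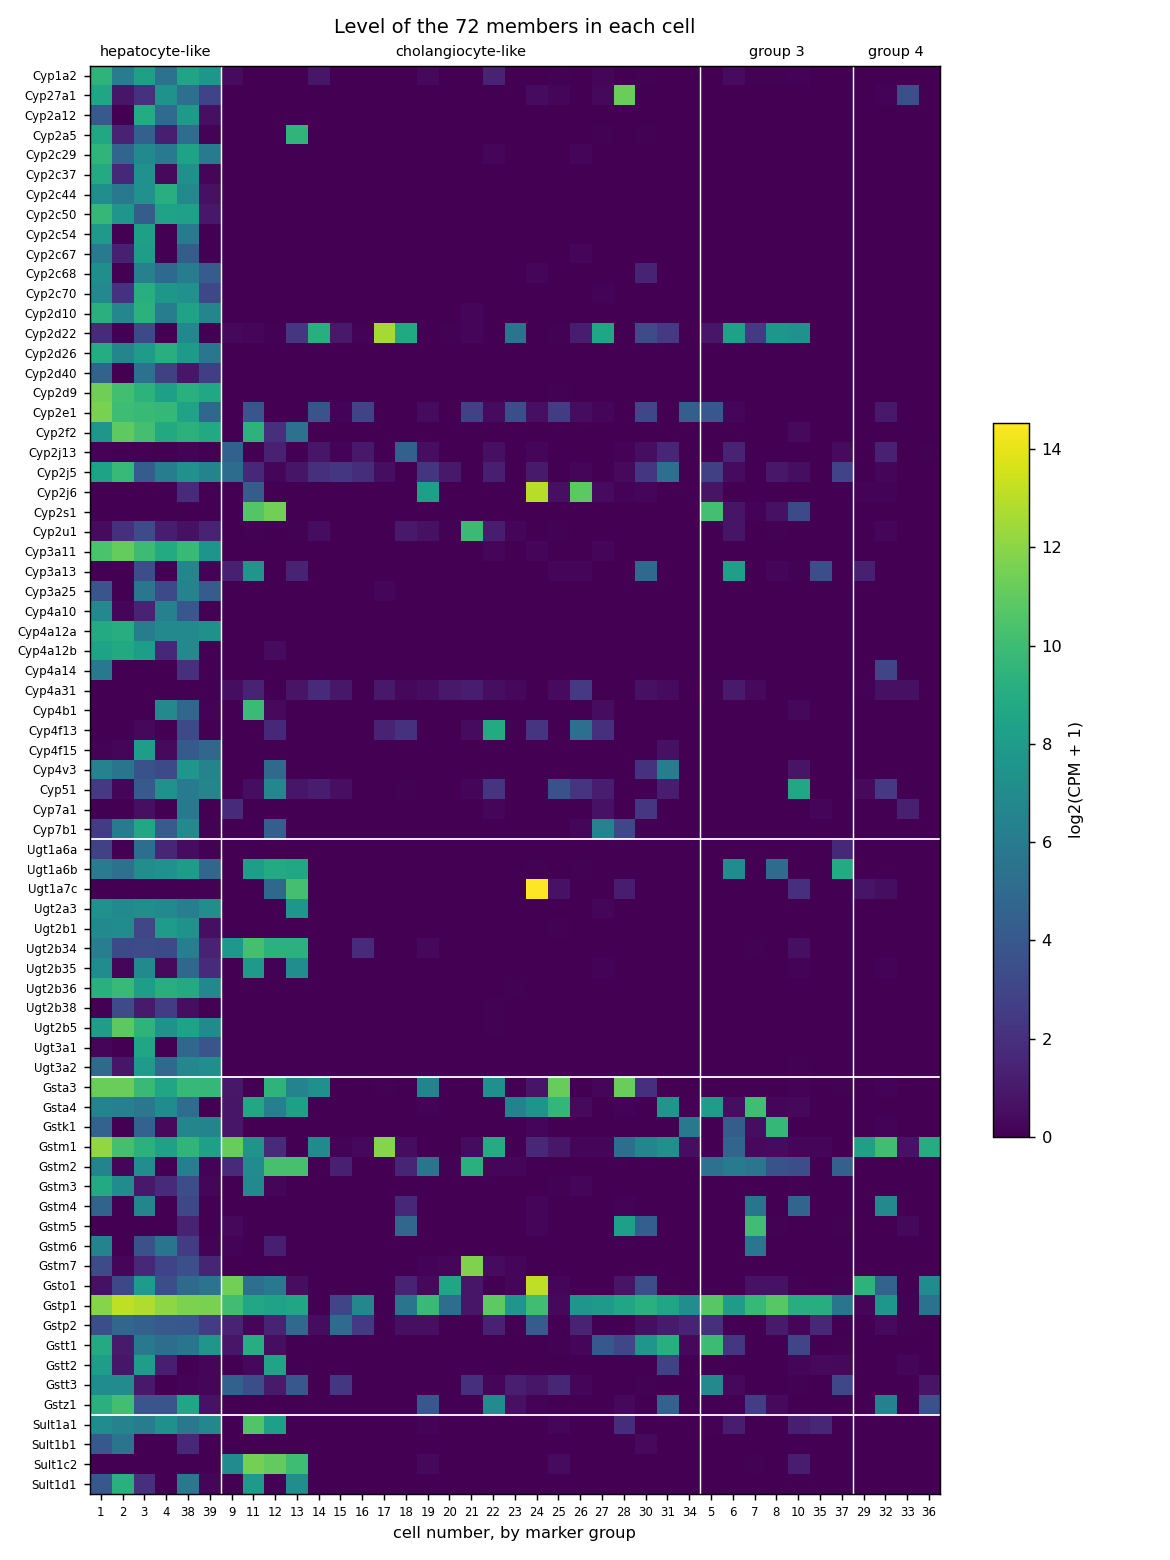
Level of each of the 72 members (rows, by family, white lines between families) in each of the 39 cells (columns, by marker group), as log2(CPM + 1). Cyp and Ugt rows are bright mostly in the 6 hepatocyte-like columns, while Gst rows, Gstp1 above all, have bright cells in the other groups.

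Among the drug-oxidising Cyp genes, Cyp3a11, the main Cyp3a enzyme of adult mouse liver, was at 1363, 2184, 1009, 473, 885 and 181 CPM in hepatocyte-like cells 1, 2, 3, 4, 38 and 39. It did not exceed 0.173 CPM in any of the other 33 cells, and the groups did not overlap. Its difference of 9.59 was the widest of the members. Cyp2d9, a steroid hydroxylase known from male mouse liver, was at 2644, 1143, 676, 301, 595 and 402 CPM in the same cells. Its highest value elsewhere was 0.0807 CPM. Its close relatives Cyp2d10 (67.8 to 646 CPM in the 6 cells) and Cyp2d26 (51.3 to 582) followed the same split, and neither passed 1 CPM elsewhere.

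Cyp2e1, which oxidises ethanol and paracetamol, was at 3150, 1044, 909, 821, 334 and 29.7 CPM, so 5 of the 6 cells passed 100 CPM and cell 39 did not. Its highest value elsewhere was 19.9 CPM, in a cholangiocyte-like cell. Cyp1a2, which acts on caffeine and aromatic amines, was at 704, 71.3, 309, 43.1, 364 and 205 CPM, against at most 1.73 elsewhere. Cyp2j5, an enzyme that forms epoxides of arachidonic acid, was at 339, 928, 17.5, 70.6, 160 and 92.9 CPM. Its lowest value, in cell 3, lay under the 39.0 CPM of a cell outside the group, so the groups overlapped. The Cyp2c genes, a large mouse subfamily of drug and fatty acid epoxygenases, were more uneven between cells: Cyp2c50 was at 818, 193, 18.6, 351, 313 and 0.907 CPM. Cyp2c54 was at 235, 312 and 63.6 CPM in cells 1, 3 and 38 and under 1 CPM in the other 3, while no Cyp2c gene passed 2 CPM outside the group.

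The fatty acid hydroxylases of subfamily Cyp4 gave a smaller count, 5 of 9 higher in hepatocyte-like cells. Cyp4a12a was at 476, 537, 70.2, 116, 114 and 154 CPM and listed at 0 in every other cell. Its near copy Cyp4a12b was at 347, 448, 272, 2.21, 116 and 0.000683 CPM. The 2 therefore differed between cells 4 and 39, with the caution on shared sequence given above.

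The bile acid and sterol genes were low in most hepatocyte-like cells. Cyp7a1, the rate-limiting enzyme of bile acid synthesis, reached 58.9 CPM in cell 38, 0.486 CPM in cell 3, and was listed at 0 in the other 4 hepatocyte-like cells. Cyp7b1, an oxysterol hydroxylase, was at 4.97, 61.9, 414, 16.9, 118 and 0.0599 CPM in cells 1, 2, 3, 4, 38 and 39. Cyp27a1, which oxidises the sterol side chain in mitochondria, was at 384, 0.848, 3.16, 167, 38.9 and 6.60 CPM, and its highest value of all, 2446 CPM, was in cholangiocyte-like cell 28. Cyp51, the lanosterol demethylase of cholesterol synthesis, was at 4.23, 0.212, 16.0, 179, 61.7 and 97.9 CPM, and at 412 CPM in a group 3 cell. By the 4-fold rule 3 of these 4 genes were higher in hepatocyte-like cells, but at most 2 were at 100 CPM in any 1 of them.

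Among the Ugt genes the Ugt2b subfamily, which joins glucuronic acid to steroids, bile acids and drugs, led. Ugt2b36 was at 588, 926, 279, 556, 466 and 111 CPM in cells 1, 2, 3, 4, 38 and 39, with at most 0.0644 CPM elsewhere. Ugt2b5 was at 282, 1879, 714, 173, 337 and 123 CPM, with at most 0.0577 CPM elsewhere. Both were at 100 CPM in all 6 cells, and neither overlapped with the other groups. Ugt2a3 was even across the group (163, 122, 151, 121, 74.0 and 139 CPM) and also reached 200 CPM in cholangiocyte-like cell 13. Ugt2b1 was at 121, 136, 7.53, 247, 170 and 0.506 CPM. Ugt2b34 was also among the members higher in hepatocyte-like cells, by 2.78, at a low median of 8.82 CPM. Its highest levels, and those of Ugt1a7c, were in single cholangiocyte-like cells and are given with them.

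Gstp1, the pi-class transferase, had the highest level per length in hepatocyte-like cells, a median of 4950 CPM per kilobase of transcript, ahead of Gsta3 (784), Gstm1 (522), Cyp2e1 (472), Cyp3a11 (404) and Cyp2d9 (371). In the 6 cells it was at 3760, 8926, 7141, 4368, 3297 and 3130 CPM, all above the highest of the other cells (1945 CPM). Its near copy Gstp2 was at 10.4, 26.3, 21.0, 15.9, 14.7 and 4.78 CPM in the same cells. Outside the group Gstp1 was the most widespread member. It reached 100 CPM in 28 of 39 cells: 6 of 6 hepatocyte-like, 15 of 22 cholangiocyte-like (68.2%, exact Clopper-Pearson 95% interval 45.1% to 86.1%, which covers only the choice of cells), 6 of 7 in group 3 and 1 of 4 in group 4. In cholangiocyte-like cells it ran from listed at 0 through a median of 211 CPM to 1945, and in group 3 from 49.1 through 534 to 1763.

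Gsta3, an alpha-class enzyme that conjugates aflatoxin epoxide in mice, was at 2487, 2418, 888, 371, 859 and 826 CPM in the hepatocyte-like cells. It reached the same range in cholangiocyte-like cells 28 (2379 CPM) and 25 (2269), with 693 in cell 12 and 159 in both cell 14 and cell 22. In groups 3 and 4 its highest value was 0.0997 CPM. Gstm1, the mu-class enzyme, was at 4728, 1209, 611, 318, 736 and 303 CPM in hepatocyte-like cells. It was detected in 9 others, 6 cholangiocyte-like cells led by cell 17 (3884 CPM) and 3 of the 4 cells of group 4 (301, 1096 and 509 CPM). In group 3 it did not exceed 25.4 CPM.

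Gsto1, an omega-class enzyme with thioltransferase activity, was among the members higher in hepatocyte-like cells, by 2.05, yet its levels there were modest (0.552, 8.06, 259, 10.4, 31.7 and 45.9 CPM). It was far higher in single cells elsewhere, at 9074 CPM in cell 24 and 2737 in cell 9. Gsta4, which conjugates the lipid peroxidation product hydroxynonenal, was higher in hepatocyte-like cells by 2.87, with a median of 65.6 CPM there against 0.0572 in cholangiocyte-like cells. Its highest single values were nevertheless in cells 7 (1066 CPM) and 25 (778). Gstz1, an isomerase of tyrosine breakdown, varied within the hepatocyte-like group, at 590, 1124, 13.2, 13.5, 393 and 0.626 CPM. Gstt1, a theta-class enzyme that acts on small halogenated compounds, was at 475, 1.06, 58.0, 36.6, 49.0 and 191 CPM there and at 1003 CPM in cell 5 of group 3.

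The 4 Sult genes divided. Sult1a1, which sulfates phenols, was even in hepatocyte-like cells (132, 89.3, 66.8, 155, 56.5 and 105 CPM) and higher in cholangiocyte-like cell 11 (1547 CPM). Sult1d1, which acts on catecholamines, was at 14.2, 598, 2.91, 0, 53.3 and 0.181 CPM. Sult1b1, a thyroid hormone sulfotransferase, reached 100 CPM in no cell. Sult1c2 was listed at 0 in all 6 hepatocyte-like cells.

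**Figure D3:**
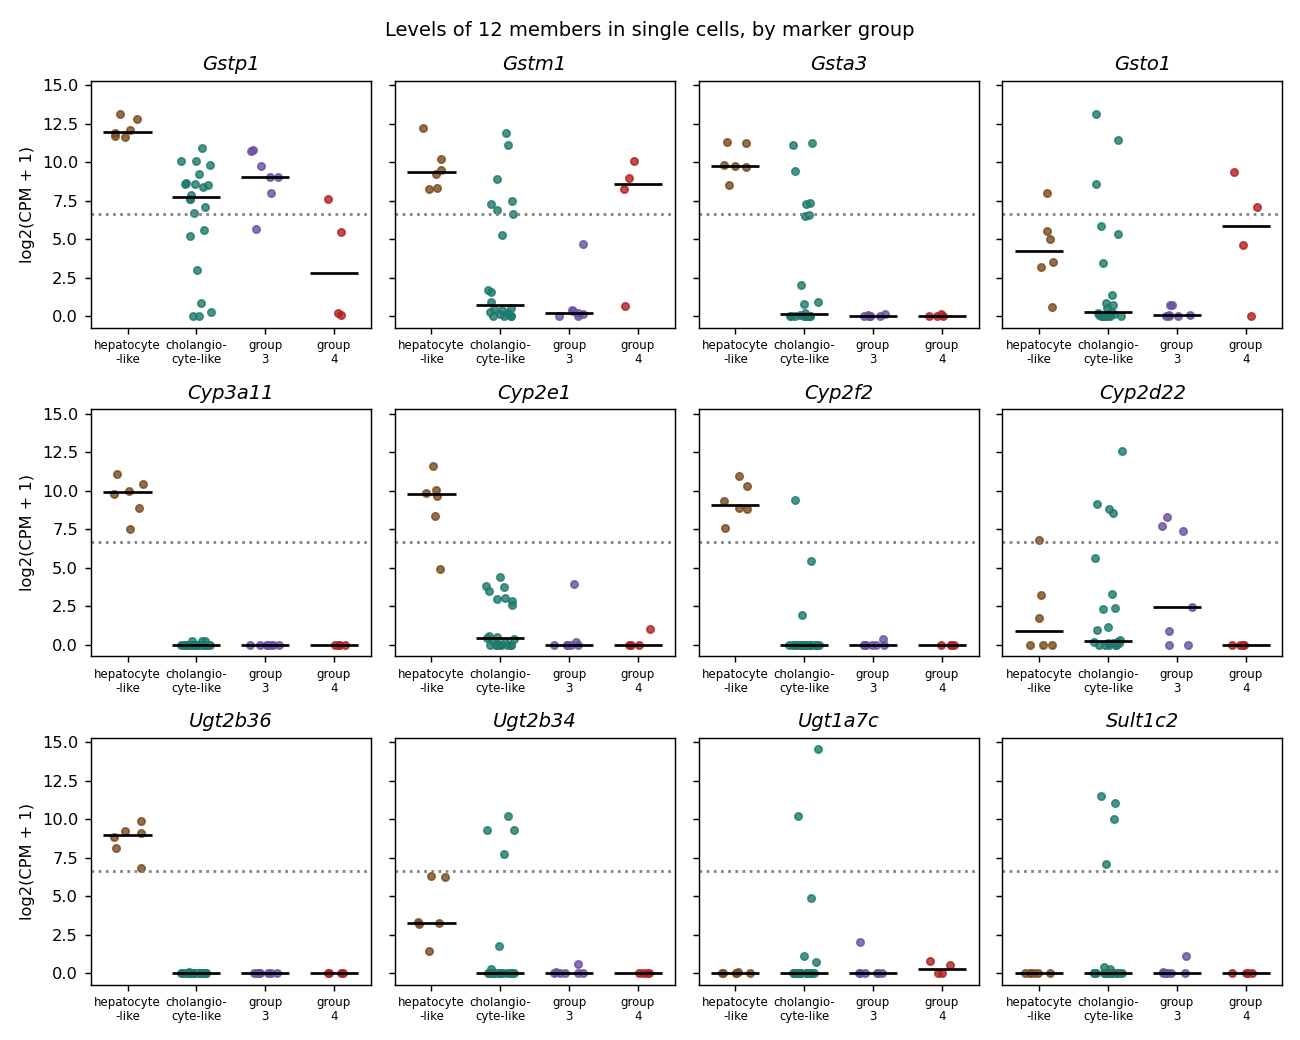
Level of 12 members, as log2(CPM + 1), in each cell of the 4 marker groups; points are cells, short lines are group medians, and the dotted line marks 100 CPM. Cyp3a11, Ugt2b36 and Cyp2e1 separate the hepatocyte-like cells, Gstp1, Gstm1 and Gsta3 pass the line in cells of other groups too, and Sult1c2, Ugt2b34 and Ugt1a7c pass the line only in cholangiocyte-like cells.

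The 6 hepatocyte-like cells also differed among themselves, among other genes in those known for their place along the lobule. Of the 8 measured members listed as central vein genes, 7 were highest in cell 1: Cyp2e1 (3150 CPM), Cyp1a2 (704), Cyp2c29 (735), Cyp2c37 (474), Gstm3 (482), Cyp2a5 (402) and Cyp27a1 (384). Cyp2a5 was at 36.0 CPM or less in the other 5 cells and Gstm3 at 133 or less. The exception was Cyp7a1, highest in cell 38. The 1 measured portal-side member, Cyp2f2, an enzyme that oxidises naphthalene, ran opposite: it was lowest in cell 1 (192 CPM), highest in cell 2 (1968), and at 1237, 448, 647 and 463 CPM in cells 3, 4, 38 and 39. All 7 were also highest in cell 1 when each cell was rescaled to the same sum. Cell 1 also had the most symbols of any kind at 100 CPM in its group, 1051 against 598 to 897. The share of all symbols that were highest in cell 1 was not calculated, so the 7 of 8 cannot be read against it.

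Of 4 zonated genes outside the families, 3 had their extreme value in cell 1, on the side of their listed zone. No order over the hepatocyte-like cells was shared. Glul, the glutamine synthetase of cells around the central vein, was at 463 CPM in cell 1 and at 0 to 88.7 CPM in the other 5. Oat, another central vein gene, was at 3544 CPM in cell 1 and 57.3 to 1697 in the others, lowest in cell 38 and next highest in cell 2. Ass1, a portal-side urea cycle gene, was at 76.8 CPM in cell 1 and 561 to 2617 in the others. Pck1, a portal-side gene of glucose synthesis, was not lowest in cell 1: it was at 631 CPM there and lowest in cell 4, at 423. Cell 1 was highest for more members than any other cell: of 50 members at 100 CPM in any hepatocyte-like cell, 17 were highest in cell 1, 10 in cell 2, 13 in cell 3, 7 in cell 4, 3 in cell 38 and 0 in cell 39. No share over all symbols was calculated for this count. Cell 1 was also the deepest of the 4 hepatocyte-like cells with a recovered depth, at 10.9 reads per CPM against 3.67 to 4.72, and the part of depth in this count was not tested. Cell 39, with the fewest members, had the lowest summed CPM over all symbols, 351255 against 528479 to 1168850. These are single cells, and what is said of cell 1 rests on that 1 cell.

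**Figure D4:**
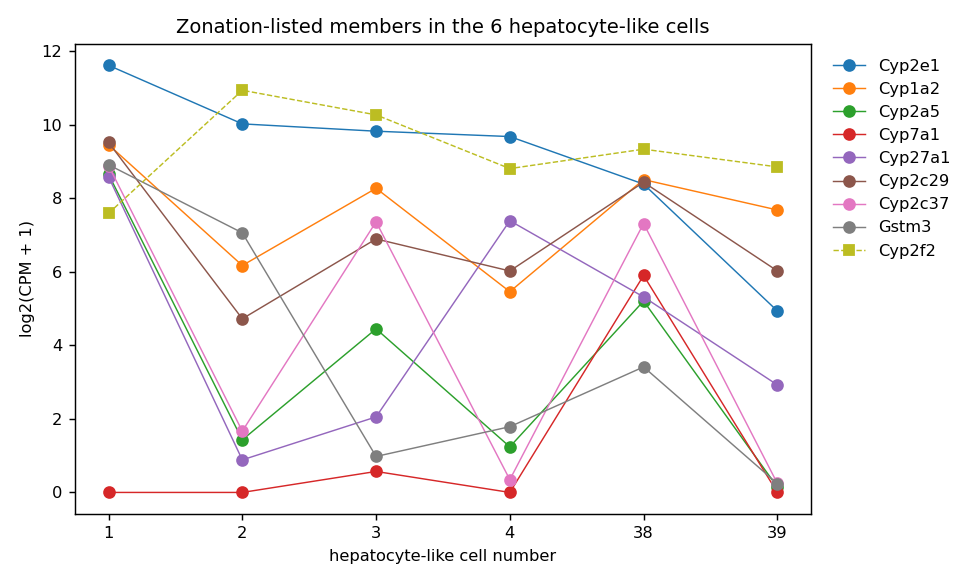
Levels, as log2(CPM + 1), of the 8 central vein members (circles) and the portal-side member Cyp2f2 (squares, dashed) in the 6 hepatocyte-like cells; lines only join the points of a gene. All circles but Cyp7a1 peak in cell 1, where Cyp2f2 has its lowest value of 192 CPM.

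In cholangiocyte-like cells 0 members were higher by the 4-fold rule (2.8% of all symbols were) and 19 were lower (8.5% were). Without hepatocyte-like cells 38 and 39 in the comparison, 8 were lower, with no share of all symbols calculated for that setting. Only Gstp1 was at 100 CPM in 50% or more of the 22 cells, where 2.25% of all symbols were. Of the 72 members, 31 (43.1%) reached 100 CPM in some cholangiocyte-like cell, where 63.6% of all symbols did. In exactly 1 of these cells were 14 members (19.4%), against 23.0% of all symbols. Some levels in single cholangiocyte-like cells, of members outside those 14, were the highest of the whole table of members. Ugt1a7c, a Ugt1a form known from gut and other epithelia, was at 23803 CPM in cell 24 and 1196 CPM in cell 13, and at most 0.0535 CPM in the hepatocyte-like cells. Cell 24 also held the highest Gsto1 (9074 CPM) and Cyp2j6 (8127 CPM), which put its summed member level at 42291 CPM, above every hepatocyte-like cell. Its sum over all symbols, 3128330 CPM, was also the highest of all cells. As a share of that sum its members were at 1.35%, under the 1.92% to 3.63% of the hepatocyte-like cells. Cyp2d22 was at 6052 CPM in cell 17 and above 100 CPM in cholangiocyte-like cells 14, 18 and 27, in 3 cells of group 3, and in only 1 hepatocyte-like cell, at 110 CPM.

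The members detected in cholangiocyte-like cells alone numbered 7, Cyp2j6, Cyp2u1, Cyp4f13, Gstm7, Sult1c2, Ugt1a7c and Ugt2b34, a smaller share (9.72%) than the 17.3% of all symbols. Sult1c2 and Ugt2b34 marked the same cells. Sult1c2 was at 135, 2911, 2151 and 1045 CPM in cells 9, 11, 12 and 13, and Ugt2b34 at 212, 1204, 623 and 624 CPM in these 4 cells. Neither was at 100 CPM in any other of the 39. In the hepatocyte-like cells Ugt2b34 ran from 1.77 to 77.8 CPM.

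Cells 11, 12 and 13 held the widest sets of members outside the hepatocyte-like group, 16, 10 and 11, against 0 to 5 in the other 19 cholangiocyte-like cells. Cells 11 and 12 also had the most symbols of any kind at 100 CPM in their group, 1196 and 1175 against a group median of 887, while cell 13 had 869. Over the 3 cells 22 members (30.6%) reached 100 CPM, where 23.9% of all symbols did. Of these, 13 (18.1% of the members) did so in no other cholangiocyte-like cell, against 4.58% of all symbols. All 3 cells had Gstm2, Gstp1, Sult1c2, Ugt1a6b and Ugt2b34, and 1.85% of all symbols were at 100 CPM in all 3. The 3 cells were picked because their member counts were high. That choice raises the shares of members in them, so these shares are descriptions only. Ugt1a6b, which conjugates phenols, was at 277, 470 and 417 CPM in cells 11, 12 and 13, above the hepatocyte-like median of 106. Cyp2s1, a Cyp known mainly from epithelia outside the liver, was at 1621 CPM in cell 11 and 2750.2 in cell 12, at 1152 in cell 5 of group 3, and listed at 0 in all hepatocyte-like cells. Cyp2f2 was at 678 CPM in cell 11, and Cyp2a5 at 732 CPM in cell 13.

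The same 3 cells showed few hepatocyte markers. Of the 30 markers, 2, 2 and 1 were at 100 CPM in cells 11, 12 and 13: Ttr in each, at 1224, 823 and 1770 CPM, and Ambp in cells 11 (2143 CPM) and 12 (5060). Alb and Apoa1 were not among them, and Alb was listed at 0 in all 3 and in cell 9. They had 7 to 9 of the 17 measured cholangiocyte markers at 100 CPM, with Spp1 at 7163, 13584 and 2663 CPM and Krt19 at 271, 813 and 1333 CPM. Mesothelial markers were at 100 CPM in cell 11 (Slc9a3r1 and Efemp1) and cell 13 (Slc9a3r1), 2, 0 and 1 of the 11 measured, and their part in the result was not tested. The depth of the 3 cells, 13.8 to 19.8 reads per CPM, lay in the upper part of the cholangiocyte-like range of 4.46 to 19.8. Under average linkage on marker correlation, cells 9, 11, 12 and 13 fell in 1 group with cells 5, 6, 7, 8 and 10 of group 3 rather than with the other cholangiocyte-like cells, so their group membership depends on the clustering. That group was the unbroken run of cells 5 to 13. Summed granulocyte markers also followed cell number, at 0 CPM in cholangiocyte-like cells 9 to 23 and 10.5 to 196 in those from cell 24 on. The labels do not say what the number stands for. A kind of cell and a run of cell numbers cannot be told apart here.

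Cholangiocyte-like cells with and without albumin RNA were set side by side. The 13 cholangiocyte-like cells with Alb at 100 CPM or more had 1 to 13 hepatocyte markers (median 6) and 0 to 5 members (median 2). The 9 cells with less Alb had 0 to 4 hepatocyte markers (median 1) and 1 to 16 members (median 5). Without cells 11, 12 and 13, the other 6 of these had 1 to 5 members (median 2), so the higher median rests on those 3 cells. Mean levels in cholangiocyte-like cells were also set against those in hepatocyte-like cells, for genes with a hepatocyte-like mean of 1 CPM or more. The share was under 1% for 22 of 35 Cyp, 7 of 11 Ugt, 2 of 16 Gst and 1 of 3 Sult genes, and for 14 of the 30 hepatocyte markers. It was 10% or more for 8 Cyp, 3 Ugt, 9 Gst and 2 Sult genes and 8 markers. Cyp3a11 (0.002%), Cyp2e1 (0.362%) and the markers Apoa1 (0.035%) and Fabp1 (0.001%) were at the low end. Gstp1 (7.51%), Gsta3 (20.3%), Gstm1 (24.9%) and the markers Alb (14.0%) and Trf (44.8%) lay between. Above 100% were 5 Cyp genes, among them Cyp2d22 (1695%) and Cyp27a1 (111%), 4 Gst genes, among them Gsto1 (944%) and Gsta4 (140%), Ugt2b34 (405%) and the marker Apob (3490%). Several of these means rest on 1 or a few cells of very high level.

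In group 3, 0 members were higher (11.4% of all symbols were) and 5 were lower (2.54% were): Cyp2e1, Cyp2f2, Gsta3, Gstm1 and Gsto1. Without cells 38 and 39 the counts were 2 and 3, and without cells 11, 12 and 13 the count of higher members was 2. Gstp1 alone was at 100 CPM in 50% or more of its cells, where 5.97% of symbols were. In group 4, Gstm1 and Gsto1 were higher (16.6% of symbols were) and 10 members were lower (5.27% were), Gstp1 among them. The group was not of 1 kind: cell 33, which had no member at 100 CPM, had 0 of 9 granulocyte markers and 9 of 9 macrophage markers at that level, while the other 3 cells had 5 to 8 and 0 to 1. Without cell 33 the counts were again 2 and 10. The same 2 Gst genes were at 100 CPM in 50% or more of the group 4 cells (11.8% of symbols), and no Cyp, Ugt or Sult gene was at 100 CPM in any of them. At 100 CPM in no cell at all were 11 members (19.0% of all symbols): Cyp2d40, Cyp2j13, Cyp3a25, Cyp4a14, Cyp4a31, Cyp7a1, Gstm6, Gstp2, Sult1b1, Ugt1a6a and Ugt2b38.

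The genes that serve these enzymes were read from lists of 68 measured partners. By the 4-fold rule 40 of the 68 were higher in hepatocyte-like cells and 2 were lower, against the 11.7% and 7.54% of all symbols given above. The median over partners was 2.62, against 3.38 over members. All 7 measured genes of electron supply and haem synthesis were higher, among them Cyb5a, cytochrome b5, at 405 to 2019 CPM (median 1068) and Pgrmc1, a haem-binding partner of Cyp enzymes, at 180 to 1014 CPM (median 692). Neither was limited to these cells. In cholangiocyte-like cells, Cyb5a reached 100 CPM in 5, at up to 1919 CPM, and Pgrmc1 in 7, at up to 10722 CPM. Por, the cytochrome P450 reductase, was at 0.204 to 237 CPM with a median of 31.5, and it reached 100 CPM in 2 hepatocyte-like cells, in 2 cells of group 3 and in 1 cholangiocyte-like cell, whose 368 CPM was the highest value. Of 23 other oxidising and hydrolysing enzymes 16 were higher. Aldh1a1, a retinal dehydrogenase, was at 92.7 to 1820 CPM and Ephx1, microsomal epoxide hydrolase, at 0.818 to 474. In group 3, 7 of the 68 partners were higher, where 11.4% of all symbols were, and 6 were lower, where 2.54% were. The 7 included Cyb5r3 (by 4.79, against 2.26 in hepatocyte-like cells), Ephx1 (2.80 against 2.72, with up to 5144 CPM) and Aldh1a1 (2.05 against 7.15).

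Fewer of the cofactor supply genes and regulators were higher. Of 9 genes that supply UDP-glucuronic acid, active sulfate or glutathione, 3 were higher (Ugp2, Gclc and Gclm), and Papss1, which makes the sulfate donor, was lower, at 0 to 5.61 CPM. Of 9 measured regulators 4 were higher, led by Rxra and Hnf4a, the latter at 2.19 to 593 CPM with a median of 88.4. Hnf4a was at 100 CPM in 3 hepatocyte-like cells and in 4 cholangiocyte-like cells, where it reached 7889 CPM. Nfe2l2, the factor that induces Gst genes under oxidative stress, differed by -1.15, and its partner Keap1 by 0.11. Mgst1, a membrane-bound glutathione transferase outside the Gst naming rule, was at 1168 to 4962 CPM in hepatocyte-like cells, with a median of 2190 CPM. It also reached 100 CPM in 13 cholangiocyte-like cells, at up to 5801 CPM, and in 6 cells of group 3. Of 13 transporters 6 were higher, among them the bile acid uptake carrier Slc10a1 at 1.16 to 592 CPM (median 158).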

How the data were processed

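RNA of 39 single cells was measured, with 1 library per cell. Per the submitters' processing notes, Bowtie 0.12.9, eXpress 1.5.1, edgeR and the mm9 build were used, with no role or order given. The deposited table holds log2 values per RefSeq transcript, and every transcript in it was above 0.5 CPM in at least 2 cells. The base and the floor constant are not given in the sources used here: each value was taken as log2(CPM + 0.167), the lowest deposited value being -2.58, and the constant was subtracted. Low values of 37 cells were whole multiples of 1 step, which gave their depth (median 12.0 reads per CPM); cells 38 and 39 gave none.

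Transcripts were summed per symbol. Cells were clustered by Ward linkage on log2(CPM + 1) of 98 marker genes, with the number of groups chosen by silhouette (0.368 for 4 groups, 0.366 for 2). The highest correlation (Spearman) of any of 741 pairs of cells was 0.58, and no pair was identical. No test was run, since the labels name 1 group and no animals. A doublet caller was not run, as cells were picked singly. Genes named were, in each family, the 8 with the highest mean, the 6 with the largest difference per group among those at 100 CPM in 50% or more of its cells, all members of the bile acid and zonation lists, the 3 detected in most cells, the 3 with the highest value and the 3 highest of each partner list; other genes were named after their values were seen, and 1 partner gene is not reported here. Members and lists were chosen with earlier results of these data known. The counting steps were tested on simulated data. Python 3.11.15, numpy 2.4.6, pandas 2.3.3, scipy 1.17.1, scikit-learn 1.9.0 and matplotlib 3.10.9 were used. Alternatives covered detection level, pseudocount, fold rule, low-value filter, scaling, transcript choice, clustering and left-out cells.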

Additional observations from a re-analysis of the deposited data

How the results depend on the processing

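Over 23 results, 115 of 149 alternative values stayed within the set limits and 34 moved. Median members per hepatocyte-like cell were 52 at 1 CPM and 42.5 at 10 CPM; cholangiocyte-like 7 at 1 CPM; group 3 8 and 5; group 4 3.5 at 1 CPM. Median detected partners were 41 and 34.5 in hepatocyte-like and 13.5 and 9 in cholangiocyte-like cells at 1 and 10 CPM. The summed hepatocyte-like level was 25605 CPM after rescaling without Rn45s, Lars2 and Rorb. Members higher in hepatocyte-like cells were 53 and 54 under the rescalings with and without these 3 genes, 53 without cells 38 and 39, and 32 with a pseudocount of 10, and 3 were lower with a fold rule of 1 on the log2 scale. With pseudocount 0.1, 2 were higher and 32 lower in cholangiocyte-like cells, 4 and 18 in group 3, and 21 lower in group 4. With pseudocount 10, 2 were lower in cholangiocyte-like cells, 2 in group 3 and 2 in group 4, where 1 was higher. With the fold rule of 1, 3 were higher and 41 lower in cholangiocyte-like cells, 5 and 32 in group 3, and 35 lower in group 4. Without cells 38 and 39, 8 were lower in cholangiocyte-like cells, and 2 higher and 3 lower in group 3. Without cells 11, 12 and 13, chosen after seeing the data, 2 were higher in group 3; leaving out cell 33, likewise added, moved no count past the limits. Clustering gave 2 groups with principal components and 2 with pseudocount 10, and a largest group of 14 with average linkage; the 6 hepatocyte-like cells formed a group alone in each. The alternative counts of higher and lower members, here and above, cover members only, and no share of all symbols was calculated beside them. The cause of these moves was not tested beyond the changed threshold or cells.

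With 1 sample, depth unknown in cells 38 and 39 and reads shared within families, counts of cells describe these cells only. A value at 0 in a single cell can be a missed transcript.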
